A study of Apis mellifera with 12 samples.

Results

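The 3 miRNAs described here, miR-252 (ame-miR-252 on the array), miR-184 (ame-miR-184) and miR-87 (ame-miR-87), gave higher mean signals in honey bee (Apis mellifera) worker brain RNA than the other 165 miRNA probes of the array. They were chosen by their mean signal over all pools of this study, so their levels and ranks are a description and were not tested. The arrays carried small RNA from brains of workers that were 15 days old, and the labels' source names call them forager brains. As newly emerged adults the workers had been injected in the abdomen with double-stranded RNA (2 µL at 10 µg/µL). In the dsVg group it matched the vitellogenin gene and was meant to lower its expression, and in the dsGFP group, the sham control, it matched green fluorescent protein, a protein absent from bees. There were 6 dsVg pools and 6 dsGFP pools, each on its own 1-colour Cy3 array, and each pool held 1 µg of small RNA with 200 ng from each of 5 bees. All groups were injected, so no uninjected bees enter the comparison, and vitellogenin mRNA was not measured on these arrays. The study asked whether lowering vitellogenin, the yolk precursor protein of the hemolymph, changes the miRNA population of the brain. Fewer cells of a type and less miRNA per cell cannot be told apart in whole brains.

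A miRNA guides the silencing complex to messenger RNAs, mainly through its seed, bases 2 to 8 from the 5′ end, and lowers their translation and stability. In the fruit fly, miR-184 acts on saxophone, a receptor of the Dpp growth factor, in the female germline. The fly miR-252 acts on the kinase mushroom bodies tiny and on Abi, a regulator of the actin skeleton, and influences growth. The fly miR-87 acts on the repressor Tramtrack in sensory neurons that regrow their dendrites. These roles come from flies and were not examined here.

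The sequences below are the targets that the scanner tables list for the 3 probes, with the seed in capitals. Another, miR-14, is shown because its signal displaced them on 1 array and because its base composition lies at the other extreme.
miR-252: aUAAGUACuagugccgcaggag
miR-184: uGGACGGAgaacugauaagggc
miR-87: gUGAGCAAaguuucaggugu
miR-14: uCAGUCUUuuucucucuccua
The 3 bright miRNAs have different seeds, and 0 of the other probes on the array share any of them. All 3 are rich in purines, at 63.6% for miR-252, 72.7% for miR-184 and 60.0% for miR-87, against a median of 48.9% over all miRNA targets of the array. Lower purine contents were found in 82.1%, 91.1% and 76.8% of the targets. miR-14 has 14.3%, the lowest of all. Their GC contents are 50%, 54.5% and 45.0%, against a median of 45.5%, and 63.7%, 76.8% and 47.6% of the targets have a lower one. miR-87 is short, at 20 nucleotides, a length that only 5 targets, itself included, do not exceed, whereas miR-252 and miR-184 have 22 nucleotides, the median length.

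In the RefSeq annotation of assembly Amel_HAv3.1, none of the genes for these miRNAs overlaps another listed gene. Mir184 lies between the protein-coding gene LOC100576527 and the long non-coding RNA gene LOC100577428. Mir252a and Mir252b stand on either side of the long non-coding RNA gene LOC113219267. Mir87-1 and Mir87-2 are direct neighbours, between the protein-coding genes LOC724728 and LOC113219210. The array has 1 probe each for miR-252 and miR-87, so the gene copies were not separated. No coordinates are given because the deposited tables name no genome build.

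Of all the miRNAs on the array, 84 were tested because their mean intensity exceeded the 95th percentile of the 608 empty spots on at least 6 of the 12 arrays. The 3 bright miRNAs belong to the 33 that were detected on all 12. Arrays differed in how many miRNAs lay above the empty spots, from 34 in dsVg pool 5 to all of them in dsVg pool 1. On 6 arrays (dsVg pools 1, 2 and 3, dsGFP pools 1, 3 and 4) it was more than 80, and results are also given within this kind and within the other 6. The intensities of dsVg pool 5 are whole numbers, and the header of dsGFP pool 1 names a median where the others name a mean. The design text calls the pools biological samples, and each had 1 array. The p-values therefore rest on the spread between pools of bees and between arrays together, and the spread between single bees was not observed. The labelled brain origin was compared with marker miRNAs. The 4 brain and neuron markers (miR-124, miR-137, miR-1000, miR-7) held 1.13 to 5.91% of the summed miRNA signal in dsVg pools and 2.38 to 6.48% in dsGFP pools, with 2 of 4 detected on every array. Shares of single markers are given only for dsVg pools other than pool 3 (n = 5), and not for dsGFP pools. There the means were 2.24% for miR-7, 0.581% for miR-124, 0.0839% for miR-1000 and 0.0674% for miR-137. In these pools the summed share of the 4 thus rested mostly on miR-7. Detected on every array were also 1 of 2 muscle, 1 of 6 gut, fat body and endocrine, and 2 of 2 sensory markers, and 33 of all 84. The 2 muscle markers held 0.129 to 0.727% and 0.242 to 0.794%, the 6 gut, fat body and endocrine markers 0.570 to 0.994% and 0.511 to 0.817%, and the 2 sensory organ and eye markers 0.571 to 1.48% and 0.865 to 1.44%, in dsVg and dsGFP pools. No marker was below the empty spots on all arrays, and the part of other tissues in the results below was not tested.

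By mean quantile-normalized log2 signal, miR-252 stood at 15.22, miR-184 at 14.38 and miR-87 at 14.28. The step from miR-87 to the next miRNA, miR-317 at 13.79, was smaller than the step from miR-252 to miR-184. Just outside were also miR-276 (13.69), which acts in fly olfactory memory, and miR-2796 (13.49). Binding strength varies between probes, so this is an order of signal and not of RNA amounts.

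miR-252 was the brightest of the 3 on every array. Its mean spot intensity in dsVg pools had a lowest value of 31686, a median of 42826 and a highest value of 51612, against 31314, 34586 and 53151 in dsGFP pools. For miR-184 these values were 15771, 26698 and 33763 in dsVg pools, against 13517, 17013 and 34263 in dsGFP pools. For miR-87 they were 14215, 22946 and 29144 in dsVg pools, against 14717, 16133 and 32924 in dsGFP pools. In each case the groups overlapped over most of their range, and the highest single array was dsGFP pool 3 for all 3 miRNAs. In dsGFP pools, 4 of the 6 arrays were dim and 2, pools 2 and 3, were bright, which puts the dsGFP medians near the low end.

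The signals stood far above the empty spots. The mean intensity exceeded the 95th percentile of the empty spots 83.2- to 657-fold for miR-252, 48.2- to 424-fold for miR-184 and 22.9- to 407-fold for miR-87. The 18 spots of a probe varied little on most arrays. Their coefficient of variation had a median of 3.59% for miR-252, 4.66% for miR-184 and 6.19% for miR-87. The highest spot of any of the 3 was 54354, a miR-252 spot on dsVg pool 5. On each of the 12 arrays the brightest spot belonged to a calibration probe, at 46586 to 62141.

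By rank on the scanned arrays, miR-252 took place 1 on 11 of 12 arrays. The exception was dsVg pool 3, where miR-14, a regulator of ecdysone signalling in flies, reached 40624 and miR-252 had 39192. miR-184 took place 2 on 6 arrays, place 3 on 5 and place 4 on 1, dsVg pool 3. miR-87 took place 2 on 5 arrays, place 3 on 6 and place 8 on 1, dsVg pool 5. The 3 miRNAs were the top 3 on 10 of 12 arrays, and both exceptions were dsVg pools. In the authors' table of processed values miR-252 took place 1 on all 12, miR-184 stayed at place 4 in dsVg pool 3, and miR-87 took place 8 in dsVg pool 5 and place 4 in dsVg pool 2. miR-184 and miR-87 changed places between arrays, so neither is the second brightest throughout.

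**Figure D1:**
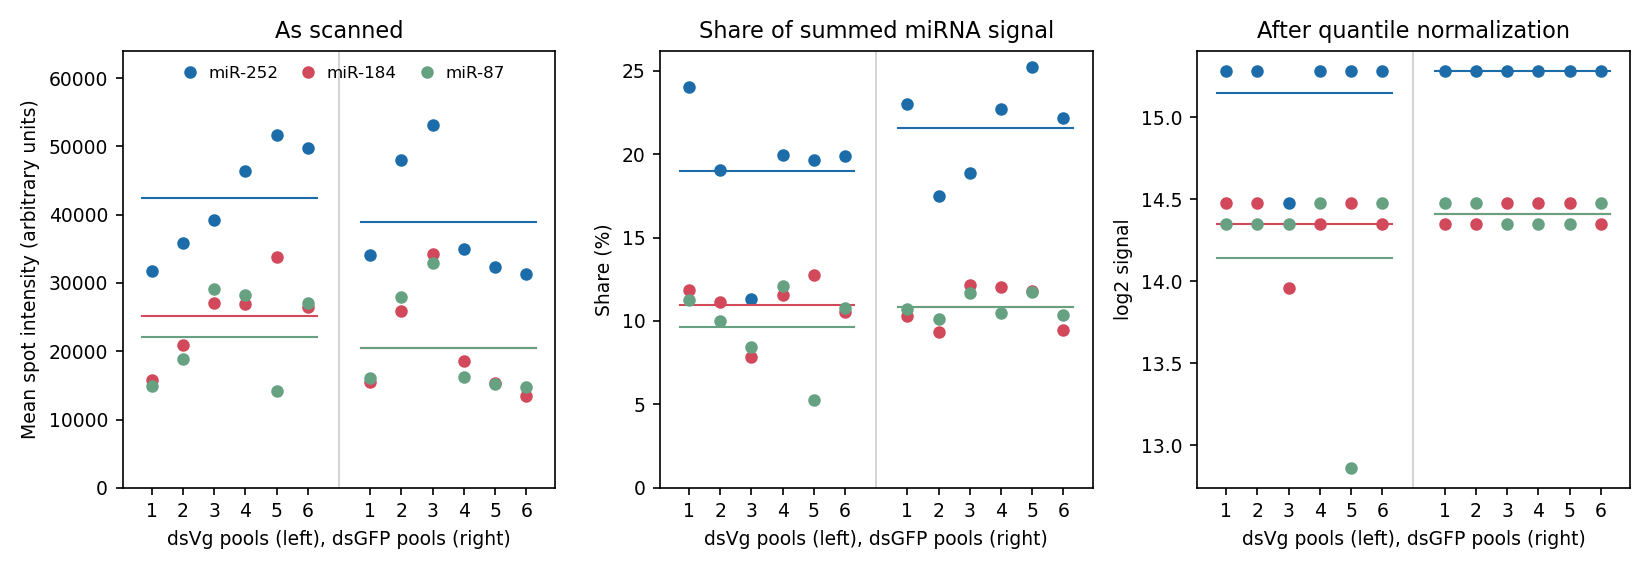
Values of miR-252 (blue), miR-184 (red) and miR-87 (green) in the 6 dsVg pools and the 6 dsGFP pools, as mean spot intensity (arbitrary units), as percent of the summed miRNA signal of the array, and as quantile-normalized log2 signal, with horizontal lines at group means. The dsGFP means of miR-184 and miR-87 nearly coincide, and after normalization the miR-252 points share 1 value on 11 of 12 arrays, with dsVg pool 3 below at 14.48.

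The share of an array's summed miRNA signal needs no scaling between arrays. It was computed from the mean intensity above the median of the empty spots, over all miRNAs of the array. On average over the 12 arrays, miR-252 held 20.3%, miR-184 10.9% and miR-87 10.2%. Together the 3 held 39.5 ± 6.67% in dsVg pools, from 27.6 to 47.1%, and 43.3 ± 3.90% in dsGFP pools, from 36.9 to 48.7% (SD, n = 6 each), a difference of -3.72 points. In the authors' table of processed values they held 40.1 ± 5.92% in dsVg pools and 47.7 ± 4.29% in dsGFP pools (SD, n = 6 each), a difference of -7.55 points, with 4 dsVg pools below every dsGFP pool. The summed share was not tested, because the 3 were chosen for their signal. The next 7 miRNAs in order, down to miR-13b, together held 35.1 ± 5.82% in dsVg pools and 30.6 ± 3.48% in dsGFP pools (SD, n = 6 each).

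miR-252 held 11.3, 19.8 and 24.0% (lowest, median, highest) in dsVg pools, against 17.5, 22.4 and 25.2% in dsGFP pools. In 5 of 6 dsVg pools it lay below the dsGFP mean, but only 1, dsVg pool 3, lay below the lowest dsGFP pool. The means were 19.0 ± 4.14% in dsVg pools and 21.6 ± 2.86% in dsGFP pools (SD, n = 6 each), a difference of -2.59 percentage points (two-sided exact permutation p = 0.240, adjusted p = 1 over 84 miRNAs). Without dsVg pool 3 the dsVg mean was 20.5 ± 1.99% (SD, n = 5), and the difference was -1.06 points. On that array miR-14 alone held 11.8% of the signal, and with miR-14 left out of the sum on all arrays the difference was -3.05 points. Within the arrays that detected more than 80 miRNAs it was -3.38 points, and within the others -1.79.

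miR-184 held 7.81, 11.3 and 12.8% in dsVg pools, against 9.36, 11.1 and 12.2% in dsGFP pools. The means were 10.9 ± 1.71% in dsVg pools and 10.9 ± 1.29% in dsGFP pools (SD, n = 6 each; exact permutation p = 0.926, adjusted p = 1). The difference of 0.0858 points has no firm sign: it was -1.23 within the arrays detecting more than 80 miRNAs and 1.41 within the others. The dsVg pools ranged wider because pool 3 lay below, and pool 5 above, every dsGFP pool.

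miR-87 held 5.27, 10.4 and 12.1% in dsVg pools, against 10.1, 10.6 and 11.7% in dsGFP pools. The means were 9.63 ± 2.47% in dsVg pools and 10.8 ± 0.695% in dsGFP pools (SD, n = 6 each), a difference of -1.22 points (exact permutation p = 0.307, adjusted p = 1). In 3 of 6 dsVg pools the share lay below every dsGFP pool. The lowest value was that of dsVg pool 5, and without it the difference was -0.344 points. Within the arrays detecting more than 80 miRNAs it was -1.08, and within the others -1.35. Across the 84 miRNAs, 0 (0%) passed the adjusted threshold of 0.05 in this test of shares and 2 (2.38%) had an unadjusted exact permutation p under 0.05, none of them among these 3.

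The total signal differed less between groups than between pools. The summed miRNA intensity above the empty spots was 234025 ± 72015 in dsVg pools and 187224 ± 70259 in dsGFP pools (SD, n = 6 each; exact permutation p = 0.288). The mean log2 signal of the 30 other miRNAs detected on all arrays, called brightness here, was 10.90 ± 0.66 in dsVg pools and 10.62 ± 0.58 in dsGFP pools (SD, n = 6 each; exact permutation p = 0.442).

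The share of miR-252 followed this brightness closely. Over the 12 arrays Pearson's r was -0.91 (permutation p = 2e-05, adjusted p = 0.00018 over 9 relations) and Spearman's rho -0.94 (permutation p = 4e-05, adjusted p = 0.00036), and the share fell by 5.45 points for each unit of log2 brightness. Without the 2 arrays farthest from the median brightness, dsVg pools 1 and 3, r was -0.94. It was -0.93 within the arrays detecting more than 80 miRNAs, -0.97 within the others, -0.89 within dsVg and -0.97 within dsGFP. The denominator of the share contains the same 30 miRNAs, so part of this relation is built in. For miR-184 r was -0.41 (rho = -0.27, permutation p = 0.185 and 0.404) and for miR-87 -0.34 (rho = -0.38, permutation p = 0.285 and 0.218). Without dsVg pools 1 and 3 these r were 0.024 and -0.17. The 3 signals differ in their slopes on brightness, given below, so this contrast cannot show how large the built-in part is.

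All 3 signals rose with brightness before normalization, with r of 0.77 for miR-252 (rho 0.80, permutation p = 0.00530 and 0.00268), 0.85 for miR-184 (rho 0.80, permutation p = 0.000800 and 0.00269) and 0.79 for miR-87 (rho 0.70, permutation p = 0.00366 and 0.0144), adjusted p = 0.0119, 0.00360 and 0.0110 for r. Without dsVg pools 1 and 3, r was 0.93 for miR-252, 0.90 for miR-184 and 0.76 for miR-87. Within dsVg pools it was 0.56, 0.79 and 0.64, and within dsGFP pools 0.96, 0.92 and 0.97. Within the arrays detecting more than 80 miRNAs it was 0.72, 0.88 and 0.92, and within the others 0.92, 0.86 and 0.67. The slopes were well under 1. Per unit of log2 change in the mean of the other miRNAs detected on all arrays, the signal of miR-252 changed by 0.39, that of miR-87 by 0.65 and that of miR-184 by 0.68. Ordered from the smallest slope among the 33 miRNAs these were places 2, 4 and 7, behind miR-3789 at -0.23. Only miR-3789 had a negative slope, so a rise with brightness was common to the rest of the 33. It does not set the 3 apart. Bright and dim arrays thus differed less in miR-252 than in most other miRNAs. Whether the scanner's range, the labelling or the RNA sets this was not tested.

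**Figure D2:**
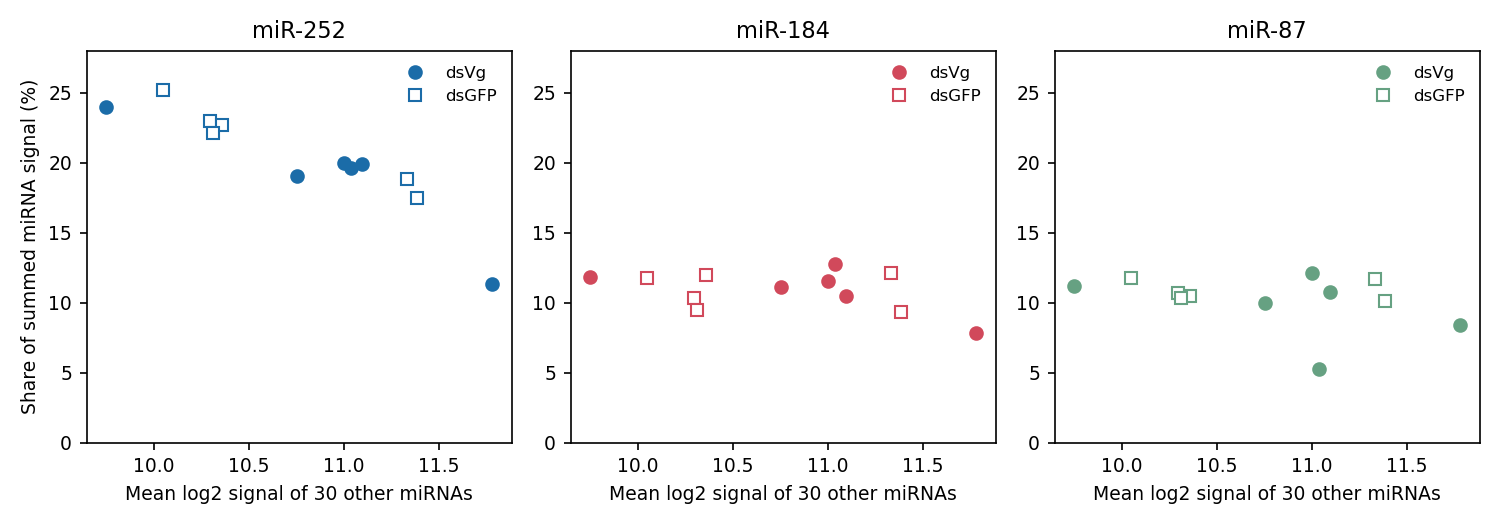
Share of the summed miRNA signal (percent) of each miRNA against the mean log2 signal of 30 other miRNAs on the same array, with dsVg pools as filled circles and dsGFP pools as open squares. The share of miR-252 falls from the dimmest to the brightest arrays in both groups, while those of miR-184 and miR-87 lie mostly between 8 and 13%, apart from the 5.27% of miR-87 in dsVg pool 5.

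After quantile normalization the levels of the 3 miRNAs did not pass the test between dsVg and dsGFP. By limma, 0 of the 84 (0%) passed at an adjusted p under 0.05 and 3 (3.57%) at an unadjusted p under 0.05, and none of these was miR-252, miR-184 or miR-87. The value of miR-252 was 15.28 in all 6 dsGFP pools and in 5 dsVg pools, because quantile normalization gives the top place of every array the same value, and it was 14.48 in dsVg pool 3. The means were 15.15 ± 0.33 in dsVg pools and 15.28 ± 0 in dsGFP pools (log2, SD, n = 6 each), a difference of -0.13 (SE 0.14, 95% interval -0.43 to 0.16, limma adjusted p = 0.772, exact permutation p = 1). It was 0 without dsVg pool 3.

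miR-184 had normalized log2 values of 13.96, 14.41 and 14.48 (lowest, median, highest) in dsVg pools, against 14.35, 14.41 and 14.48 in dsGFP pools. The means were 14.35 ± 0.20 in dsVg pools and 14.41 ± 0.071 in dsGFP pools (SD, n = 6 each), a difference of -0.065 (SE 0.099, 95% interval -0.28 to 0.15, limma adjusted p = 0.838, exact permutation p = 0.825). On the linear scale this interval spans 0.823- to 1.11-fold. The normalized value only restates the place of miR-184 on the array, so the interval does not bound a change in abundance. Without dsVg pool 3 the difference was 0.010.

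miR-87 had 12.86, 14.35 and 14.48 in dsVg pools, against 14.35, 14.41 and 14.48 in dsGFP pools. The means were 14.14 ± 0.63 in dsVg pools and 14.41 ± 0.071 in dsGFP pools (SD, n = 6 each), a difference of -0.27 (SE 0.24, 95% interval -0.80 to 0.26, limma adjusted p = 0.772, exact permutation p = 0.608). The interval spans 0.574- to 1.20-fold, and it does not bound a change in abundance either. Without dsVg pool 5 the difference was -0.012. Within the arrays detecting more than 80 miRNAs the normalized differences were -0.25 for miR-252, -0.11 for miR-184 and -0.054 for miR-87, and within the others 0, 0 and -0.48. For all 3 miRNAs the normalized value reflects little more than the rank on the array.

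The direction of these differences followed the scaling. Without normalization they were 0.13 for miR-252, 0.34 for miR-184 and 0.11 for miR-87, and the median over the 84 miRNAs was 0.15. After each array's 75th percentile of the 33 miRNAs detected on all arrays was subtracted, they were -0.33, -0.12 and -0.35, and the median over the 84 was -0.31. With cyclic loess they were -0.35, -0.11 and -0.33, and the median was -0.012. The unadjusted limma p of miR-252 was then 0.0364 and its adjusted p 0.437 (0.437 to 1 over 29 alternatives), with 7 of 84 miRNAs (8.33%) at an unadjusted p under 0.05. Relative to the median of the 84, miR-252 was lower with cyclic loess. It was also lower after quantile normalization (-0.13, median 0.025) and in the authors' table (-0.44, median 0.086). Without normalization it was near the median. Scaling to a percentile shifts all miRNAs of an array alike, so this distance stays the same by arithmetic and is no separate result.

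In the authors' table of processed values, the miR-252 intensity had 22877, 30460 and 39106 (lowest, median, highest) in dsVg pools, against 33400, 40796 and 53416 in dsGFP pools. In 5 of 6 dsVg pools it lay below every dsGFP pool. On the log2(value + 1) scale the means were 14.88 ± 0.26 in dsVg pools and 15.32 ± 0.25 in dsGFP pools (SD, n = 6 each), a difference of -0.44 (unadjusted limma p = 0.0326, limma adjusted p = 0.525, exact permutation p = 0.0152, adjusted p = 0.545 over 84 miRNAs). The difference did not pass adjustment, and 6 of 84 miRNAs (7.14%) had an unadjusted limma p under 0.05 in that table. It ran from -0.52 to -0.36 with 1 pool left out in turn. Within the arrays detecting more than 80 miRNAs it was -0.36, and within the others -0.52. The share of miR-252 in that table was 18.3 ± 2.79% in dsVg pools and 23.4 ± 3.09% in dsGFP pools (SD, n = 6 each), a difference of -5.12 points (exact permutation p = 0.0195, adjusted p = 0.545). There, 7 of 84 miRNAs (8.33%) had an unadjusted p under 0.05 and 0 (0%) an adjusted one. In dsVg pools 4, 5 and 6 the scanned intensities of miR-252, from 46460 to 51612, exceeded at least 4 of the 6 dsGFP pools, whereas the authors' values for 2 of them, 32722 and 22877, lie below every dsGFP pool. The way the authors' values were normalized was not given in the sources used here.

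In the same table miR-184 had 16795, 18902 and 20434 in dsVg pools, against 18197, 19820 and 25188 in dsGFP pools. Its difference was -0.16 (exact permutation p = 0.160, adjusted p = 0.628). miR-87 had 6872, 19070 and 23187 in dsVg pools, against 17071, 21341 and 25834 in dsGFP pools, with a difference of -0.38 (exact permutation p = 0.173, adjusted p = 0.632). The groups overlapped for either miRNA, with 2 dsVg pools below every dsGFP pool for miR-184 and 3 for miR-87.

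**Figure D3:**
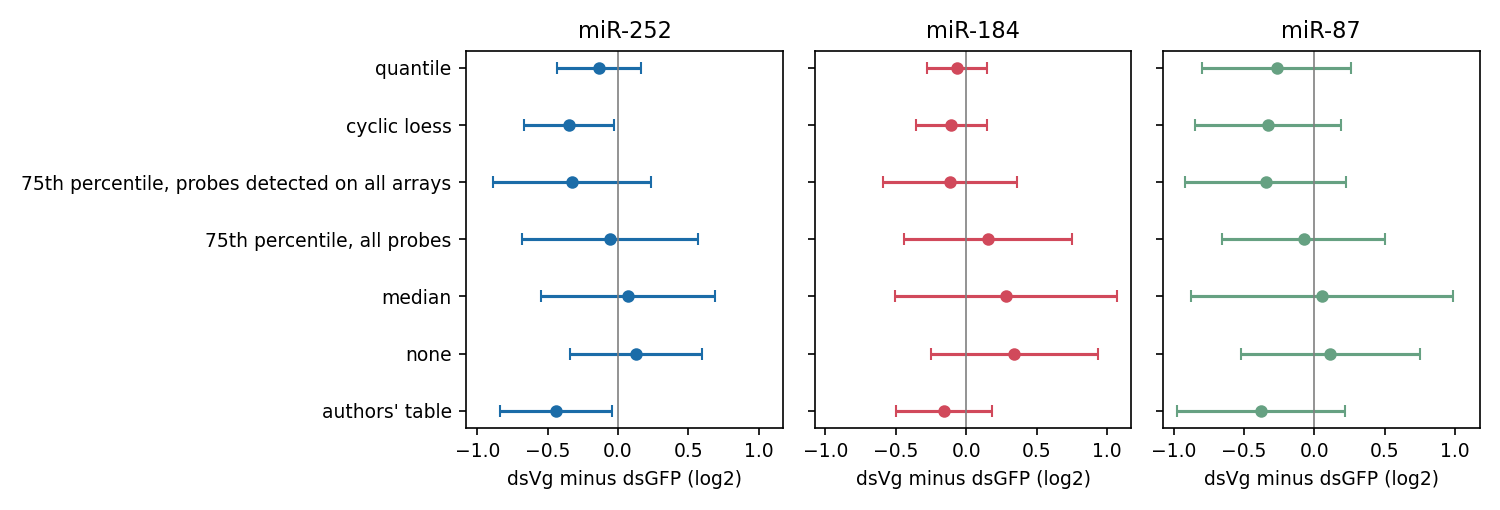
Difference in log2 signal between dsVg and dsGFP pools (dsVg minus dsGFP) for each miRNA with its 95% limma interval, under 6 ways of scaling the scanned arrays and in the authors' table. Points lie on both sides of 0 for each miRNA, and the intervals of miR-252 with cyclic loess and in the authors' table are the only ones that end short of 0, before any adjustment.

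In the ratio of 2 miRNAs on 1 array, a factor that multiplies all signals of the array alike cancels. Brightness did not cancel fully, since the slopes above differ between the 3 miRNAs. Before normalization, miR-184 over miR-252 had log2 ratios of -1.02, -0.78 and -0.54 (lowest, median, highest) in dsVg pools, against -1.22, -1.01 and -0.63 in dsGFP pools. The means were -0.77 ± 0.18 in dsVg pools and -0.99 ± 0.21 in dsGFP pools (SD, n = 6 each), a difference of 0.21 (exact permutation p = 0.0996, adjusted p = 0.299 over 3 pairs). It was 0.13 within the arrays detecting more than 80 miRNAs and 0.30 within the others. The direction was the same in both kinds of array, and the ranges overlapped. The ratio was -0.54 and -0.63 on the bright arrays of dsVg pool 3 and dsGFP pool 3, against -1.02 and -1.22 on the dim arrays of dsVg pool 1 and dsGFP pool 6. Not all arrays were ordered this way: it was -0.90 on the bright array of dsGFP pool 2 and -0.92 on the dim array of dsGFP pool 4. The mean brightness was higher in dsVg pools, and its part in the difference was not tested.

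miR-87 over miR-252 had ratios of -1.95, -0.91 and -0.43 in dsVg pools, against -1.12, -1.10 and -0.69 in dsGFP pools. The means were -1.0 ± 0.52 in dsVg pools and -0.98 ± 0.19 in dsGFP pools (SD, n = 6 each), a difference of -0.019 (exact permutation p = 0.961, adjusted p = 0.961). Without dsVg pool 5 it was 0.17. Within the arrays detecting more than 80 miRNAs it was 0.15, and within the others -0.19.

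miR-184 over miR-87 had ratios of -0.11, 0.021 and 1.33 in dsVg pools, against -0.12, -0.022 and 0.20 in dsGFP pools. The means were 0.23 ± 0.55 in dsVg pools and -0.0034 ± 0.12 in dsGFP pools (SD, n = 6 each), a difference of 0.23 (exact permutation p = 0.446, adjusted p = 0.669). It was -0.026 within the arrays detecting more than 80 miRNAs and 0.49 within the others. Without dsVg pool 5 the dsVg mean was 0.0057 ± 0.11 (SD, n = 5). On the other 11 arrays the 2 miRNAs lay within 0.20 log2 units of each other.

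How steady the 3 miRNAs looked over the pools of a group depended on the scaling. Before normalization the SD within groups, pooled over dsVg and dsGFP, was 0.30 for miR-252, the smallest of the 33 miRNAs detected on all arrays, whose median was 0.68. It was 0.46 for miR-184 (place 4 of 33) and 0.51 for miR-87 (place 6). After quantile normalization it was 0.23 for miR-252 (place 4), 0.15 for miR-184 (place 1) and 0.45 for miR-87 (place 15), with a median of 0.49. Under scaling to the 75th percentile of the miRNAs detected on all arrays it was 0.42 for miR-252 (place 22), 0.32 for miR-184 (place 10) and 0.44 for miR-87 (place 23), with a median of 0.39. In the authors' table the SD was 0.26 for miR-252 (place 6), 0.17 for miR-184 (place 1) and 0.49 for miR-87 (place 18), with a median of 0.48. Under scaling to the median of all miRNAs it was 0.50 for miR-252 (place 1), 0.65 for miR-184 (place 6) and 0.77 for miR-87 (place 14), with a median of 0.83. Thus among the 33, miR-252 was the steadiest before normalization and under median scaling, which widened most SDs. Under the other settings given here, miR-252 had other miRNAs ahead of it. miR-184 had the smallest SD of the 33 after quantile normalization, where its value only restates place 2, 3 or 4 on the array, and in the authors' table. miR-87 lay near the middle of the 33 miRNAs in both, and its place was at its best, 6, before normalization. Which of the 3 looked steady therefore changed with the scaling.

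The low miR-87 value of dsVg pool 5 was looked at spot by spot. Of its 18 spots, 17 had intensities of 11032 to 15308 and 1 had 38945. The pixel SD of that spot was 808, against a median of 355 for the others. It was the only 1 of the 648 spots of the 3 miRNAs that lay more than 1 log2 unit from the median of its probe, and 11 of the 7128 spots of the 33 miRNAs did so. The mean of 14215 becomes 12760 without it, and the median was 12716, so the low value of the array came from its other spots.

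**Figure D4:**
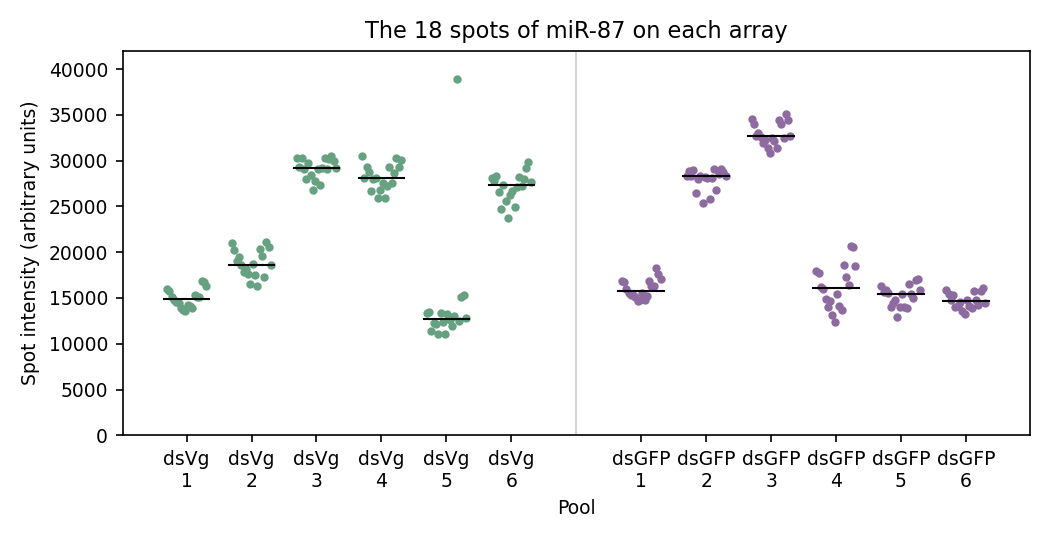
Intensity (arbitrary units) of the 18 spots of miR-87 on each array, dsVg pools in green and dsGFP pools in purple, with a line at the median. The spots of an array lie close together except for the 1 spot at 38945 on dsVg pool 5, and those of dsGFP pool 4 are spread wider than those of the other dsGFP pools.

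On dsVg pool 5 other probes moved as well. Before normalization, 7 of the 33 miRNAs lay below their median over the other 11 arrays, among them miR-87 at -0.49 and miR-71, the only other of the 33 with a target of 20 nucleotides or fewer, at -0.63. The largest shortfalls were those of miR-7 (-3.53), miR-13b (-2.11), miR-8 (-1.73), bantam (-1.69) and miR-932 (-1.55). The targets of these are not short, with 22 nucleotides for miR-932 and 23 for the others. miR-7, miR-13b, miR-8 and bantam have the lowest GC content of the 33, at 34.8%. That of miR-932 is 45.5%, of miR-71 42.1% and of miR-87 45.0%. miR-184 and miR-252 were instead higher on that array, by 0.68 and 0.52. Higher too were let-7 and miR-277, with GC contents of 38.1% and 39.1%. The part of target length and of GC content was not tested. Of 13 bright calibration probes, 4 had their lowest value on dsVg pool 5 and 1 had its highest. The 4 were Ctr07-3P, at 17160 against 23415 to 53638 elsewhere, and PUC2PM-20B, a2-PUC2PM-20B and a3-PUC2PM-20B, whose names mark them as related. The part of these probes and miRNAs in the miR-87 value was not tested.

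On dsGFP pool 4 the 18 spots of miR-87 differed with their position: the means of the 6 rows that hold them ran from 13385 to 19891, a ratio of 1.49. The rows of miR-184 on that array had a ratio of 1.31 and those of miR-252 a ratio of 1.18.

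The miRNAs whose pattern over the 12 arrays was most like that of each of the 3 were sought among the other 32 detected on all arrays. The measure was Pearson's r of the log2 signal before normalization minus the array's median over the 33. For miR-184 they were miR-252 (r = 0.94, rho = 0.80) and miR-277 (r = 0.94, rho = 0.92), a regulator of amino acid breakdown in flies. For miR-252 they were miR-184 (r = 0.94) and miR-3719 (r = 0.86, rho = 0.85). For miR-87 they were miR-252 (r = 0.81, rho = 0.66) and miR-184 (r = 0.74, rho = 0.64). Without dsVg pools 1 and 3, the 2 arrays farthest from the median, r was 0.85 between miR-184 and miR-252, 0.95 between miR-184 and miR-277, and 0.75 between miR-252 and miR-3719. For miR-87 it was then 0.52 with miR-252 and 0.37 with miR-184, with dsVg pool 5 still included. Within dsVg pools these 2 correlations of miR-87 were 0.79 and 0.70, and within dsGFP pools 0.93 and 0.98. Within the arrays detecting more than 80 miRNAs they were 0.98 and 0.99, and within the others, which include dsVg pool 5, 0.39 and 0.16. The partners were picked as the highest of 32 and share the subtracted median, so no p is given.

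Other miRNAs reported from insect brains were taken as a list of 20, all of them tested. With limma 0 of the 20 passed the adjusted threshold, against 0% of all 84. Of them 10 were higher and 10 lower in dsVg pools, with a median difference of -0.019, and of all 84, 45 were higher and 39 lower, with a median of 0.025. Their summed share of the signal was 35.5, 39.2 and 49.2% (lowest, median, highest) in dsVg pools, against 28.6, 36.8 and 39.1% in dsGFP pools.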

How the data were processed

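Brain small RNA of 6 dsVg and 6 dsGFP pools was tailed, tagged and stained with Cy3 by a service provider, per the labels' protocols. The authors deposited 1 scanner table per array, with spot intensity and, as a second signal column, the spread of its pixels, per the file headers, and 1 table of processed intensity values. The scanner, the image software and how that table was normalized were not given in the sources used here, and the tables hold no background column. Each array has 3968 spots, with 18 for each of 168 miRNAs.

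Intensities were corrected with normexp (offset 50) in limma 3.58.1 under R 4.3.3, log2 values were averaged over the spots of a probe and quantile-normalized. Shares used the mean intensity above the median of the empty spots. Groups were compared with limma (lmFit, eBayes, two-sided, Benjamini-Hochberg over 84 miRNAs) and by exact permutation over 924 assignments, whose smallest p is 0.0021645. Correlations used 100000 permutations, whose smallest p is 1e-05. Shares were adjusted over the 84 miRNAs in place of the planned 4 shares, and the summed share of the 3 was not tested. The pool numbers were checked as pairs: the correlations of deviations of same-numbered pools were -0.267 to 0.532. Pools with different numbers were not compared, so this check cannot exclude pairing. The main fit took the pools as unpaired. The number of arrays limits the precision. The miRNAs named are the 3 brightest, the next 7, the 2 most alike in pattern to each, list members by counts, and miR-14 where a share turns on it. Members and lists were chosen with earlier results of these data known. miRNAs named on dsVg pool 5 were chosen after their values were seen.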

Additional observations from a re-analysis of the deposited data

Results flagged for a closer look

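Among 38 groups of 6 pools that were examined for a single far value, 6 had one. Chance gives about 1 in 20 for values without ties, a rate that does not apply to the 3 quantile-normalized values among them, which are tied by rank, and 3 of the 6 concern miR-87 on dsVg pool 5. In dsVg pool 3 the quantile-normalized log2 signal was 13.96 for miR-184, with the other dsVg pools at 14.35 to 14.48, and 14.48 for miR-252, with the other dsVg pools all at 15.28. On that array miR-14 ranked above all 3 miRNAs. In dsVg pool 5 the quantile-normalized log2 signal of miR-87 was 12.86, with the other dsVg pools at 14.35 to 14.48. On the same array its spots had a coefficient of variation of 44.2%, against 3.75 to 7.86% in the other dsVg pools, and the log2 ratio of miR-184 over miR-87 was 1.33, against -0.11 to 0.16. In dsGFP pool 4 the coefficient of variation of the miR-87 spots was 14.9%, against 3.71 to 7.49% in the other dsGFP pools. The causes were not tested.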

How the results depend on the processing

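Over 29 alternatives for each level difference, the adjusted limma p of miR-184 was 0.681 to 1, that of miR-252 0.437 to 1 and that of miR-87 0.550 to 1, so none of the 3 was called. The differences of miR-184 turned positive at 0.15 (75th percentile of all probes), 0.28 (median scaling) and 0.34 (no normalization), and ran from -0.094 to 0.010 with 1 pool left out. Those of miR-252 were 0.073 with median scaling and 0.13 with none, and -0.16 to 0 with 1 pool left out. Those of miR-87 were 0.054 with median scaling and 0.11 with none, and -0.34 to -0.012 with 1 pool left out. With array weights 1 miRNA, none of these, passed the adjusted threshold, against 0 in the other settings. The share difference of miR-184 was -0.686 points in the authors' table, -0.0602 without miR-14 in the sum, -1.23 within the arrays detecting more than 80 miRNAs, and -0.282 to 0.711 with 1 pool left out. With 1 pool left out, that of miR-252 was -3.59 to -1.06, of miR-87 -1.71 to -0.344 and of all 3 together -5.22 to -1.32. The log2 ratio difference of miR-87 over miR-252 was 0.060 in the authors' table, 0.15 within the arrays detecting more than 80 miRNAs and -0.13 to 0.17 with 1 pool left out. That of miR-184 over miR-87 was -0.026 within those arrays and 0.0091 to 0.30 with 1 pool left out, and that of miR-184 over miR-252 was 0.16 to 0.28. The causes were not tested.

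The SDs moved with scaling. In dsVg pools that of miR-184 was 0.56 (75th percentile of all probes) and 0.58 (median scaling), and with 1 pool left out it was 0.071 to 0.23, that of miR-252 0 to 0.36 and that of miR-87 0.071 to 0.70. In dsGFP pools the SDs of miR-184, miR-252 and miR-87 were 0.52, 0.32 and 0.51 without normalization, 0.34, 0.40 and 0.31 (75th percentile of miRNAs detected on all arrays), 0.33, 0.27 and 0.22 (75th percentile of all probes), 0.71, 0.51 and 0.68 (median scaling), 0.25, 0.30 and 0.22 (cyclic loess), 0.52, 0.32 and 0.51 as scanned without normalization, a setting chosen after seeing the data, and 0.21, 0.25 and 0.22 in the authors' table. In the fit with pool number as a block, the limma adjusted p was 0.870 for miR-184, 0.753 for miR-252 and 0.753 for miR-87 (differences -0.065, -0.13 and -0.27), the share differences were 0.0858, -2.59 and -1.22 points (sign permutation, adjusted p = 1 for each), and the ratio difference of miR-184 over miR-252 was 0.21 (exact sign permutation p = 0.0312, adjusted p = 0.0938). The smallest p that 6 pairs allow is 0.03125, so a single share or ratio could not pass adjustment on its own. Their unchanged calls can therefore not be read as stability. The block changed no limma call, and the pairing check could not decide whether the numbers pair the pools. Of 350 recomputed values, 302 were counted as keeping their direction and call or staying within the spread, 25 moved beyond it and 23 turned sign. The 302 include level differences that became 0 and so lost their direction. They also include exact tests within a kind of array, which rest on too few pools to reach a p under 0.05. The 302 therefore do not measure stability. Quantile normalization limits what can be seen at the top of the scale, where values are shared between arrays, and a bound on changes in abundance cannot be drawn from it.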
